A study of Drosophila melanogaster with 12 samples.

Results

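The mRNAs of 42 translation initiation and elongation factors were followed in fly heads through a day of warm and cold and through the day of constant warmth after it. The factors are the genes whose probe set carries a single gene name that begins with eIF, eEF or Ef1, or is EF2, in its current or older form, and they are 42 of the 10843 genes that have a probe set of their own on the array. They have 48 probe sets, and where a gene has several (5 genes) the one with the highest mean over the 12 arrays stands for it. Of the 42, 37 passed the filter on low values, which asks that at least 7 of the 12 values exceed the 20th percentile of their array.

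Initiation begins when eIF2 brings the initiator tRNA to the small ribosomal subunit, helped by eIF1 and the large complex eIF3, while eIF4E holds the cap of the mRNA, eIF4G ties it to the ribosome and the helicase eIF4A opens its leader. eIF5 and eIF5B then release eIF2 and join the large subunit, and eIF2B recharges eIF2 with GTP, a step that stress kinases block. In elongation eEF1A delivers each aminoacyl-tRNA and its partners reload it with GTP. The fly genome holds, beside the general genes, extra copies of cap-binding and scaffold genes, and eIF4E3, eIF4E5 and eIF4G2 are known for their use in the male germ line.

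All samples were heads of adult *y w* flies, which have a working clock, kept in darkness. Each time point had 1 Affymetrix Drosophila Genome array, and a time point was taken every 4 h. The groups were the CA cryophase (CA2, CA6 and CA10, at 18 °C), the CA thermophase (CA14, CA18 and CA22, at 25 °C), the AA subjective cryophase (AA2, AA6 and AA10, at 25 °C) and the AA subjective thermophase (AA14, AA18 and AA22, at 25 °C), where CA is the thermocycle day and AA the day at constant 25 °C that followed it. Each array was made from the pooled heads of many flies, sieved from frozen bodies, and no time point was repeated. The spread behind every error below is therefore that of 3 different times of day in each group, and differences between hours count as error. Values are on the log2 scale, on which a difference of 1 is a doubling, and array medians lay between 5.558 and 5.603.

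Marker genes of other tissues differed in level between the arrays. For 67 marker genes of gut, muscle and male gland or testis that passed the filter, the mean deviation from the gene's own mean, called the body-tissue index, was -1.51 on CA10, 1.13 on CA18, 0.79 on CA14, 0.53 on AA14 and 0.41 on AA18, and between -0.41 and 0.05 on the other 7 arrays. Of the markers that passed, 28 of 29 gut, 15 of 15 muscle and 23 of 23 male genes were lower in the CA cryophase than in the CA thermophase, with median differences of -1.19, -0.38 and -1.47. By contrast, 10 of 10 photoreceptor, 4 of 4 neuron and 7 of 7 glia markers were higher, with medians of 0.41, 0.23 and 0.20. Arr2, the major photoreceptor arrestin, averaged 12.7 in the CA cryophase and 12.4 in the CA thermophase, and 12.6 in both phases of AA. In RNA from heads sieved from frozen bodies, a different amount of a tissue in the sample and a different level of RNA per cell cannot be told apart.

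**Figure D1:**
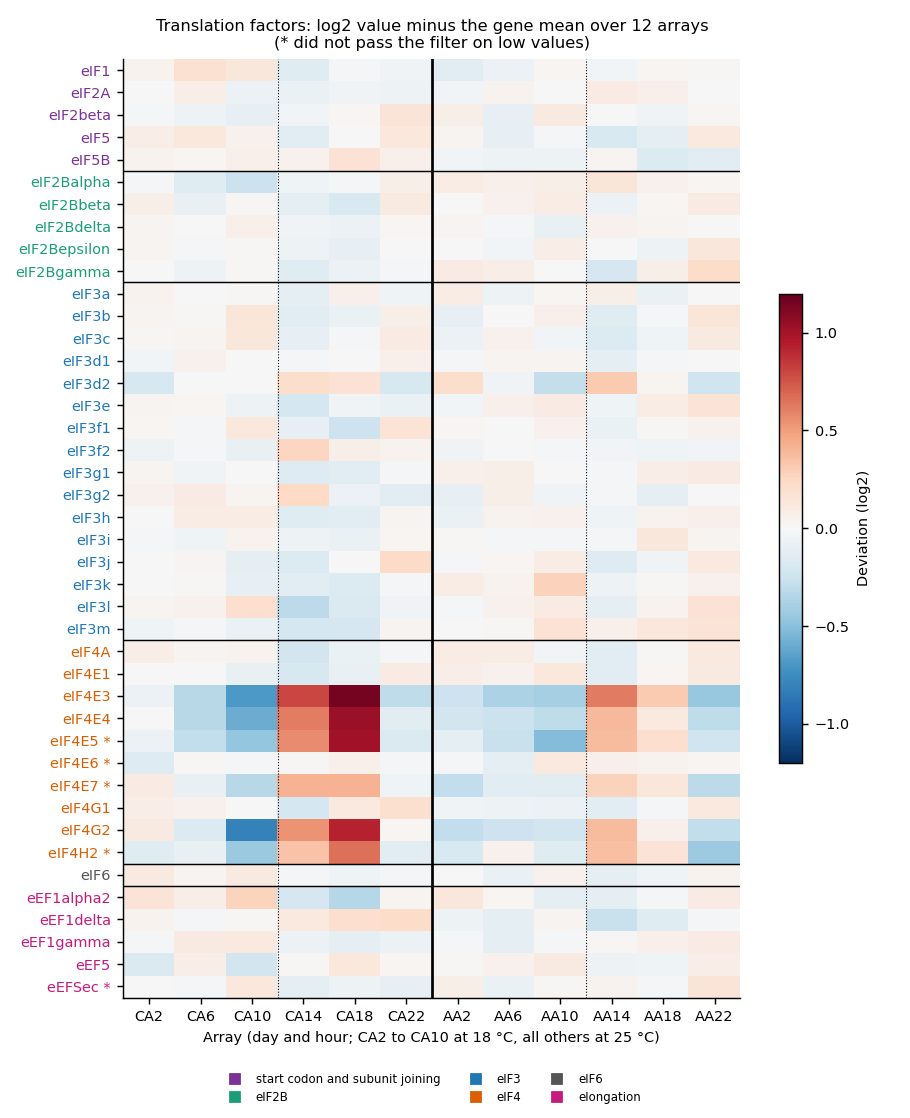
Each row is 1 of the 42 factors, grouped by role, and each column 1 of the 12 arrays in time order, with CA left of AA. Colour gives the log2 value minus the gene's mean over the 12 arrays, and the strongest colours are those of eIF4E3, eIF4E4, eIF4E5 and eIF4G2 on CA18.

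The ranges of the factors over the 2 days lay near those of all probe sets. Across the 12 arrays the 37 members that passed had a median range of 0.34, against 0.37 for all 11145 probe sets that passed, and 62.2% of them ranged over more than 0.3, against 68.9%. Within CA the median range was 0.26, against 0.31 for all probe sets, and within AA it was 0.20, against 0.24. The extremes lay within the eIF4 group. eIF4E3 ranged over 1.83 between CA10 and CA18, eIF4G2 over 1.74 and eIF4E4 over 1.62, while eIF2Bdelta ranged over 0.155 in all, the smallest range of the 37.

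The first comparison asks whether the transcripts differed between 18 and 25 °C on the thermocycle day. No member passed an adjusted p of 0.05 in limma, and neither did any of the 11145 probe sets (0%). Of the 37, 25 lay higher in the CA cryophase than in the CA thermophase and 12 lower, against 65.3% higher over all probe sets, and the median difference was 0.06, against 0.05. At an unadjusted p under 0.05, 5 members were higher and 5 lower, 10 of 37, against 21.4% of all probe sets. At an adjusted p under 0.2, 4 were higher (eEF1alpha2, eIF3l, eIF1 and eEF1gamma) and 4 lower (eIF4E3, eIF4E4, eIF4G2 and eIF3f2), against 8.94% higher and 6.93% lower over all. The 3 values at 18 °C lay wholly above the 3 at 25 °C in 6 members and wholly below in 2, against 12.6% and 5.08%. Each of these counts of members has its share of all probe sets beside it, and none of them was tested against that share.

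The array CA22 decided how many members passed. Without it, the CA thermophase is left with CA14 and CA18, and 6 members passed an adjusted p of 0.05. eEF1alpha2 and eIF3l were then higher at 18 °C by 0.45 and 0.34 (adjusted p = 0.0134 and 0.0305), with 9.29% of all probe sets called higher. eIF4E3, eIF4E4, eIF4G2 and eIF3f2 were lower, with differences of -1.34, -1.13, -1.02 and -0.22 (adjusted p = 0.0123, 0.0106, 0.02 and 0.0369), with 8.46% of all called lower. The remaining 2 arrays, CA14 and CA18, are those with the highest body-tissue index.

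**Figure D2:**
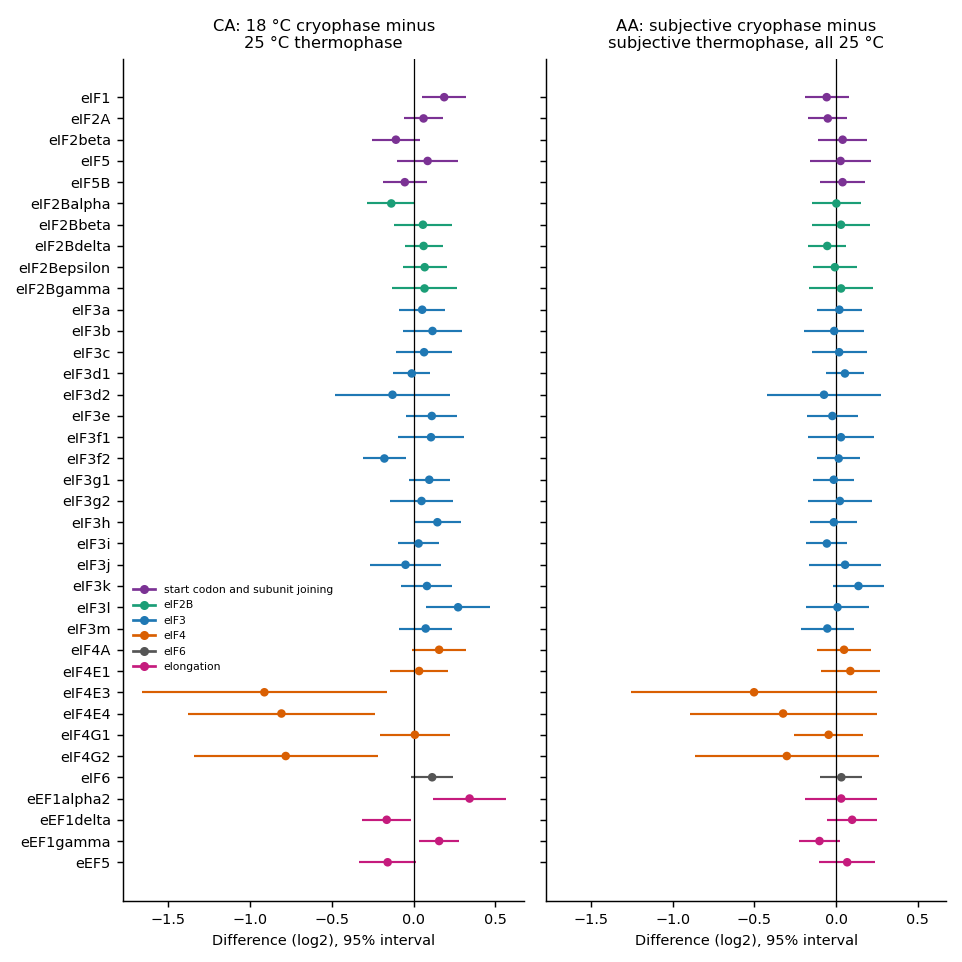
Points are the log2 differences of the 37 factors that passed the filter, with limma's 95% intervals, for the CA day (left) and the AA day (right), coloured by role. The intervals of eIF4E3, eIF4E4 and eIF4G2 lie below 0 in CA and reach across it in AA, and those of eEF1alpha2, eIF3l, eIF1, eEF1gamma and eIF3h lie above 0 and those of eIF3f2 and eEF1delta below 0 in CA alone.

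The cap-binding and scaffold genes showed 2 shapes. eIF4E3, a cap-binding protein of the male germ line, read 5.32, 5.06 and 4.71 at CA2, CA6 and CA10, against 6.20, 6.54 and 5.09 at CA14, CA18 and CA22. On the AA day it read 5.15, 5.01 and 4.999 at AA2, AA6 and AA10, against 6.02, 5.71 and 4.94 at AA14, AA18 and AA22. It was high at hours 14 and 18 of both days and low at all others, and CA22 lay among the cryophase values and AA22 below them, so that the phases of each day overlap. The CA difference was -0.91 (SE 0.34, adjusted p = 0.18).

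eIF4E4, another gene for a cap-binding protein, had 4.52, 4.18 and 3.92 in the CA cryophase, against 5.12, 5.54 and 4.38 in the CA thermophase. Its AA values were 4.30, 4.26 and 4.21 in the subjective cryophase, against 4.90, 4.63 and 4.20 in the subjective thermophase. CA14, CA18, AA14 and AA18 were again the highest arrays, and CA22 lay below CA2. The CA difference was -0.81 (SE 0.26, adjusted p = 0.169). eIF4G2, the germ line scaffold protein, had 4.91, 4.64 and 3.99 in the CA cryophase, against 5.34, 5.73 and 4.82 in the CA thermophase, and in AA 4.51, 4.56 and 4.58, against 5.18, 4.86 and 4.51. Its lowest value was that of CA10 and its highest that of CA18, and the phases overlap because CA2 exceeded CA22. The difference in CA was -0.78 (SE 0.26, adjusted p = 0.169), a level 1.72-fold lower in the cryophase. eIF4E4 and eIF4G2 each exceeded the limit of the filter on 11 of the 12 arrays, and both were lowest on CA10.

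eIF4E5, eIF4E7 and eIF4H2 did not pass the filter. eIF4E5 and eIF4H2 exceeded its limit on 4 arrays each and eIF4E7 on 0 arrays. eIF4E5, also used in the male germ line, read 4.02, 3.79 and 3.62 at 18 °C, against 4.65, 5.09 and 3.91 at 25 °C in CA. eIF4E7 read 3.62, 3.43 and 3.19 at 18 °C, against 3.94, 3.94 and 3.47. eIF4H2, named for a helper of the helicase eIF4A, read 3.91, 3.97 and 3.62 at 18 °C, against 4.40, 4.72 and 3.93. Within CA all 3 were highest on CA14 and CA18, and in each CA22 lay below the highest cryophase value. Fitted without the filter, their CA differences were -0.74 (SE 0.25), -0.37 (SE 0.17) and -0.52 (SE 0.21). The other members that did not pass were eIF4E6, with values from 3.87 to 4.14 and a CA difference of -0.07 (SE 0.07), and eEFSec, the factor for selenocysteine, with values from 3.38 to 3.63 and a difference of 0.12 (SE 0.07).

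The general genes of the cap complex had another shape. eIF4E1, the main cap-binding protein, read 9.05, 9.04 and 8.95 at 18 °C, against 8.84, 8.95 and 9.14 at 25 °C in CA, and 9.12, 9.10 and 9.17 in the AA subjective cryophase, against 8.91, 9.06 and 9.15 in the AA subjective thermophase. Hour 14 was its lowest on both days and the CA22 value exceeded every value at 18 °C, for a difference of 0.03 (SE 0.08) whose sign turned under 4 alternatives. eIF4G1, the main scaffold protein, read 6.43, 6.40 and 6.35 at 18 °C, against 6.14, 6.47 and 6.55, a spread that enclosed the values at 18 °C (difference 0.01, SE 0.10, sign also unsettled). eIF4A, the helicase, read 11.85, 11.81 and 11.82 at 18 °C, against 11.55, 11.69 and 11.76, with no overlap between the temperatures, and differed by 0.16 (SE 0.08, adjusted p = 0.256). Its AA values of 11.87, 11.86 and 11.74, against 11.64, 11.79 and 11.89, overlapped, and AA14 was again the lowest.

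The marker genes moved over the same arrays as the germ line copies. The male gland and testis list averaged -1.74 on CA10, 1.05 on CA14 and 1.44 on CA18 as deviations from the gene means, 0.62 on AA14 and 0.45 on AA18, and between -0.65 and -0.03 on the other 7 arrays. With the body-tissue index as a covariate, the CA differences were -0.13 (SE 0.21) for eIF4E3, -0.22 (SE 0.16) for eIF4E4 and -0.15 (SE 0.11) for eIF4G2. Leaving out CA10 and CA18 gave -0.45, -0.40 and -0.31 for the same genes, and leaving out CA14, CA18, AA14 and AA18 gave -0.06, -0.17 and -0.31, both settings chosen after the data were seen. In a 24-h cosine fitted to CA, the index took the amplitude of eIF4E3 from 0.72 to 0.32 (SE 0.08). That of eIF4E4 went from 0.63 to 0.29 (SE 0.08) and that of eIF4G2 from 0.58 to 0.17 (SE 0.06). The unadjusted p-values of the cosine (limma's F test) were 0.0048, 0.0091 and 0.058 with the index. Without it they were 0.035, 0.017 and 0.028. The index was taken from these same arrays, and what part other tissues have in the level of these genes was not tested.

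**Figure D3:**
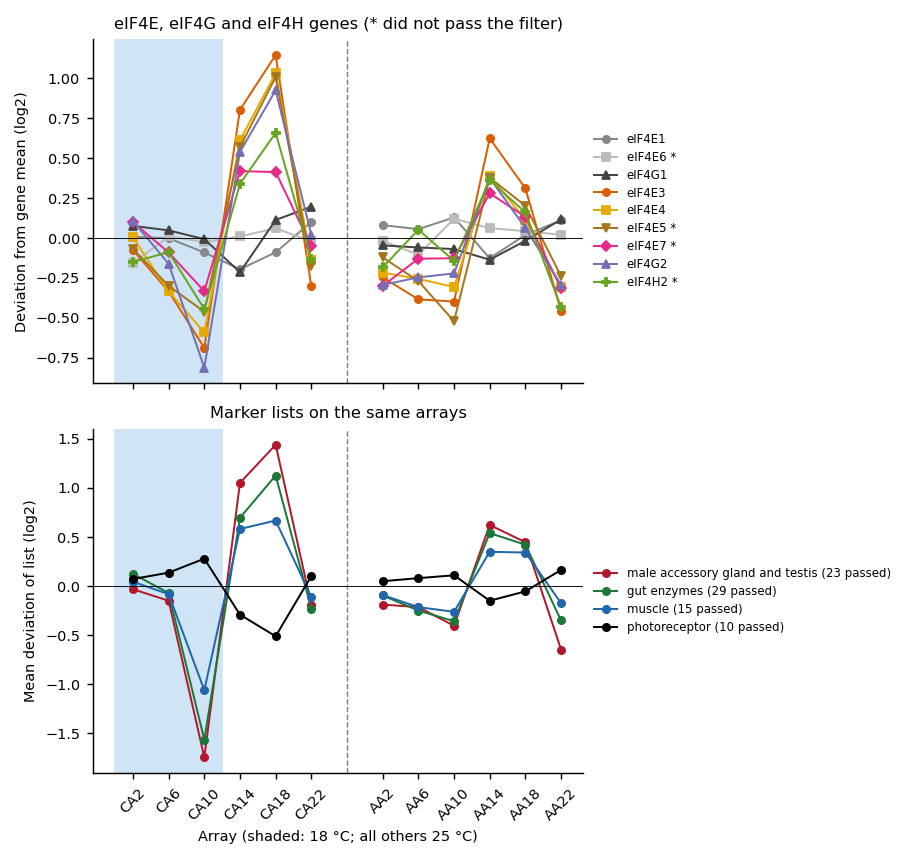
The upper panel gives the deviation of each eIF4E, eIF4G and eIF4H gene from its mean over the 12 arrays (log2), in time order with the 18 °C arrays shaded, and the lower panel the mean deviation of 4 marker lists on the same arrays. eIF4E3, eIF4E4, eIF4E5, eIF4E7, eIF4G2 and eIF4H2 are highest within CA on CA14 and CA18, where the male, gut and muscle lists are at their highest, while eIF4E1, eIF4E6 and eIF4G1 stay near their means.

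Of eIF3, the complex that links the small subunit to the cap complex, 16 genes passed the filter, among them eIF3d2, eIF3f2 and eIF3g2, each a second gene for a subunit. Of the other 13 genes, 11 lay higher at 18 °C in CA, against 65.3% of all probe sets, and 2 lower (eIF3d1 and eIF3j), with a median difference of 0.08 and differences between -0.05 and 0.27. Of these 13, 1 (eIF3l) was higher at an adjusted p under 0.2, against 8.94% of all. With the body-tissue index as a covariate, 6 of the 13 lay higher in CA and 7 lower, with a median of -0.004. Over all 11145 probe sets, 5655 then lay higher. In AA, 7 of the 13 lay higher in the subjective cryophase and 6 lower, against 58.2% higher over all. The 78 pairs of these 13 genes correlated across the 12 arrays with a median Pearson r of 0.45, the 465 pairs of the 31 members outside the second genes of eIF3 and eIF4 with 0.29, the 120 pairs of all 16 eIF3 genes with 0.21 and the 666 pairs of the 37 members with 0.12. The arrays share their RNA and their makeup of tissues, and the split of subunits from their second genes was made after the values were seen.

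eIF3l read 9.42, 9.44 and 9.59 at 18 °C, against 9.08, 9.22 and 9.34 at 25 °C in CA. In AA it read 9.37, 9.44 and 9.48, against 9.27, 9.43 and 9.57. The temperatures did not overlap in CA, where the difference was 0.27 (SE 0.09, adjusted p = 0.169), and AA22 came close to the level of CA10. eIF3h had 9.28, 9.37 and 9.37 at 18 °C, against 9.13, 9.15 and 9.31. CA22 lay above CA2, and the difference was 0.15 (SE 0.07, adjusted p = 0.232). eIF3b, a core subunit that carries other subunits, had 7.64, 7.62 and 7.75 at 18 °C, against 7.47, 7.52 and 7.67. CA22 again lay among the values at 18 °C (difference 0.12, SE 0.08, adjusted p = 0.419), and with the index as a covariate the value was -0.03.

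Of the 3 second genes, eIF3f2 and eIF3d2 lay lower at 18 °C in CA and eIF3g2 higher, by 0.05. eIF3f2 read 4.97, 5.01 and 4.95 at 18 °C, against 5.29, 5.10 and 5.07 at 25 °C, all 3 cold values below the warm ones, with a difference of -0.18 (SE 0.06, adjusted p = 0.17). On the AA day it stayed between 4.98 and 5.03, the narrowest daily range of the 37 members at 0.05. eIF3d2 read 4.46, 4.64 and 4.65 at 18 °C, against 4.86, 4.83 and 4.46, and in AA 4.87, 4.61 and 4.37, against 4.97, 4.68 and 4.42. It was high at hour 14 of both days and on CA18 and AA2, the phases overlapped, and the difference of -0.13 (SE 0.16) turned to 0.05 with the index as a covariate. Whether a copy differed from its partner was not tested.

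Among the 5 factors of start codon choice and subunit joining, 3 lay higher at 18 °C in CA and 2 lower, with a median of 0.06. eIF1, which guards the choice of the start codon, read 8.20, 8.33 and 8.29 at 18 °C, against 8.01, 8.14 and 8.11 at 25 °C, and in AA 8.02, 8.09 and 8.18, against 8.12, 8.18 and 8.16. Every cold value of CA lay above the other 9 arrays. The difference was 0.19 (SE 0.06, adjusted p = 0.169), or 1.14-fold, and 0.16 with the index as a covariate. eIF2A, eIF2beta, eIF5 and eIF5B differed by between -0.11 and 0.09, each with overlap between the temperatures. eIF6, which keeps the large subunit free until it is joined, read 7.08, 7.01 and 7.08 at 18 °C, against 6.96, 6.92 and 6.95, all cold values above the warm ones (difference 0.11, SE 0.06, adjusted p = 0.278).

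Of the 5 subunits of eIF2B, the factor that recharges eIF2, 4 lay higher at 18 °C by 0.06 to 0.07 and eIF2Balpha, a regulatory subunit, lay lower. It read 6.36, 6.22 and 6.11 at 18 °C, against 6.32, 6.35 and 6.44 at 25 °C in CA, and 6.47, 6.43 and 6.44 in the AA subjective cryophase, against 6.51, 6.42 and 6.40 in the AA subjective thermophase. The value went down through the cold hours to CA10, and CA2 lay among the warm values, for a difference of -0.14 (SE 0.07, adjusted p = 0.26). CA10 is also the array with the lowest body-tissue index, and with the index as a covariate the difference was -0.08, and -0.08 without CA10.

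The elongation factors did not share a direction. eEF1alpha2, one of a pair of fly genes for eEF1A, read 6.75, 6.68 and 6.87 at 18 °C, against 6.39, 6.25 and 6.63 at 25 °C in CA. Its AA values were 6.73, 6.63 and 6.49 in the subjective cryophase, against 6.48, 6.58 and 6.69 in the subjective thermophase. All cold values of CA lay above the warm ones, CA18 was the lowest array and CA10 the highest. The difference of 0.34 (SE 0.10, 95% interval 0.12 to 0.56, adjusted p = 0.169), 1.27-fold, was the highest of the 37, and was 0.17 (SE 0.10) with the index as a covariate.

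eEF1gamma, a subunit of the complex that reloads eEF1A, read 9.72, 9.84 and 9.85 at 18 °C, against 9.67, 9.62 and 9.66, without overlap, a difference of 0.16 (SE 0.06, adjusted p = 0.176). In AA it read 9.71, 9.62 and 9.72, against 9.74, 9.79 and 9.83, and there the subjective cryophase lay wholly below. eEF1delta, another subunit of that complex, read 7.84, 7.78 and 7.81 at 18 °C, against 7.91, 7.999 and 8.01, all cold values below the warm ones, a difference of -0.17 (SE 0.07, adjusted p = 0.207) that became -0.22 (SE 0.09) with the index. Against all 9 arrays at 25 °C the sign turned, to 0.02, because its AA values of 7.73, 7.68 and 7.83 and 7.53, 7.66 and 7.77 were lower than those of the CA thermophase. eEF5, the hypusine-bearing factor that eases difficult peptide bonds, read 9.65, 9.90 and 9.60 at 18 °C, against 9.83, 9.94 and 9.84, and CA6 lay among the warm values (difference -0.16, SE 0.08, adjusted p = 0.264).

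**Figure D4:**
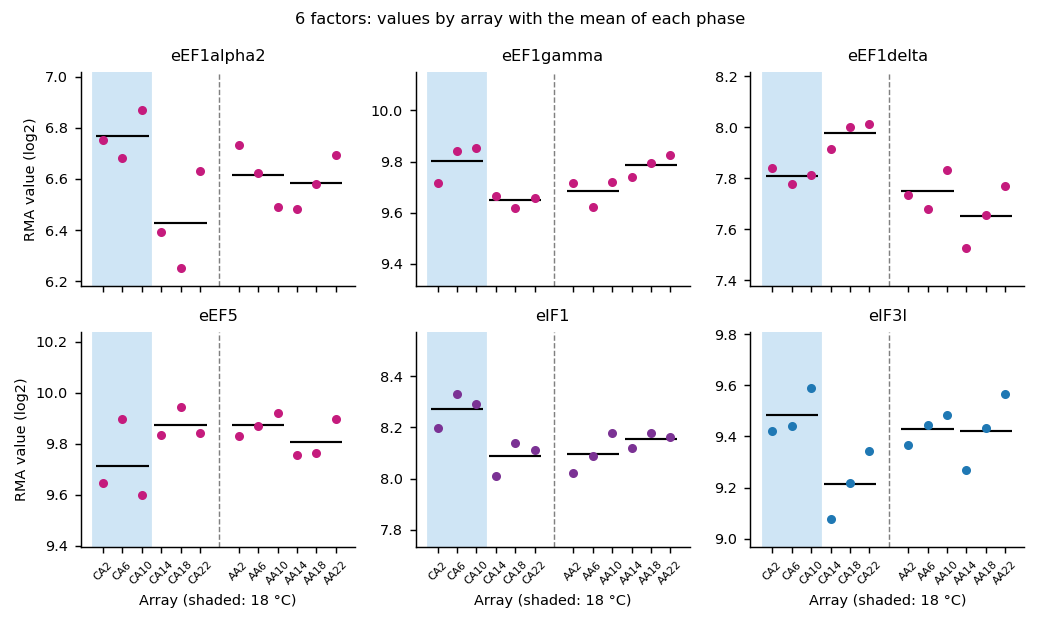
Points are the log2 values of 6 factors on each of the 12 arrays, with the mean of each phase as a bar and the 18 °C arrays shaded; every panel spans the same width on the log2 axis. In CA the cold values of eEF1alpha2, eEF1gamma, eIF1 and eIF3l lie above the warm ones and those of eEF1delta below, and in AA the phases overlap except for eEF1gamma.

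The second comparison asks whether the same phases of the day differed at constant 25 °C. No member passed an adjusted p of 0.05 (0% of all probe sets), and none had an unadjusted p under 0.05, against 2.93% of all. Of the 37, 21 lay higher in the subjective cryophase and 16 lower, against 58.2% higher over all, with a median of 0.016 for the members and 0.017 for all probe sets. No member had its subjective cryophase wholly above, against 6.64%, and 1 had it wholly below, eEF1gamma with -0.10 (SE 0.06), against 3.71%. The lowest differences were those of eIF4E3 (-0.50, SE 0.34), eIF4E4 (-0.32, SE 0.26) and eIF4G2 (-0.30, SE 0.26), and the highest those of eIF3k (0.14, SE 0.07), eEF1delta (0.10, SE 0.07) and eIF4E1 (0.09, SE 0.08). Without AA14 and AA18, together with CA14 and CA18, the first 3 became 0.11, 0.05 and 0.04.

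The change in this difference between the 2 days was tested as an interaction. No member passed an adjusted p of 0.05 (0% of all), with adjusted p-values from 0.933, and 4 members had an unadjusted p under 0.05, against 3.6% of all. These were eEF1gamma at 0.26 (SE 0.08), eIF1 at 0.24 (SE 0.09), eEF1delta at -0.26 (SE 0.10) and eIF3f2 at -0.20 (SE 0.09), as CA minus AA. The highest value was that of eEF1alpha2, 0.31 (SE 0.14), followed by eIF3l with 0.26 (SE 0.13). The lowest were eIF4E4 and eIF4G2, each -0.48 (SE 0.37 and 0.36), and eIF4E3 with -0.41 (SE 0.48), whose sign turned with the index as a covariate (0.08) and without CA10 and CA18 (0.05).

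The third comparison sets 18 °C against 25 °C at the same hours, the CA cryophase against the AA subjective cryophase, and shares its CA arrays with the first. No member passed an adjusted p of 0.05 (0% of all), and 3 had an unadjusted p under 0.05, against 6.01% of all. They were eIF2Balpha with -0.21 (SE 0.07, adjusted p = 0.689), eIF3k with -0.16 (SE 0.07, adjusted p = 0.816) and eIF1 with 0.18 (SE 0.06, adjusted p = 0.732). Of the 37, 17 lay higher, 19 lower and 1 at 0, against 50.3% higher over all, with a median of -0.005. In 4 members the cold values lay wholly above (eIF1, eIF4G1, eIF5 and, only in the probe set used, eIF5B), against 7.1% of all. In 4 they lay wholly below (eIF2Balpha, eIF3k, eIF3m and eIF4E1), against 6.33%. eIF2Balpha had 6.36, 6.22 and 6.11 in the CA cryophase, against 6.47, 6.43 and 6.44 in the AA subjective cryophase, and the CA value at each hour was the lower one.

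eIF4E3, eIF4E4 and eIF4G2, the 3 lowest members within CA, differed at matched hours by -0.02 (SE 0.34), -0.05 (SE 0.26) and -0.04 (SE 0.26). Their 95% intervals reached from -0.77 to 0.73 for eIF4E3 and from -0.62 to 0.53 for eIF4E4, against differences of -0.91 and -0.81 within CA. eEF1alpha2 differed by 0.15 (SE 0.10), eEF1gamma by 0.12 (SE 0.06) and eEF5 by -0.16 (SE 0.08).

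Daily shape was also described by a 24-h cosine fitted to each day. In CA no member passed an adjusted p of 0.05, against 0.368% of all probe sets, and 6 had an unadjusted p under 0.05, against 19.3%. At an adjusted p under 0.2 there was 1 member, eEF1alpha2, against 7.42% of all, with an amplitude of 0.25 (SE 0.06), a fitted peak at 5.45 h and an adjusted p of 0.194. Next came eIF4E4 (amplitude 0.63, SE 0.17, peak 17.7 h), eIF2Balpha (0.14, SE 0.04, peak 21.3 h), eEF1gamma (0.12, SE 0.04, peak 7.32 h) and eIF4G2 (0.58, SE 0.18, peak 18.8 h), with adjusted p-values from 0.202 to 0.23. Without CA22, 3 members passed an adjusted p of 0.05, eIF4E3, eIF4E4 and eIF4G2, against 6.56% of all.

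The fitted CA peaks of 23 of the 37 members fell in the first 6 h of the cold phase, among them 12 of the 13 subunits of eIF3 outside its second genes, and 12 peaked in the warm phase. Over all probe sets 31.6% peaked in those 6 h and 34.6% in the warm phase. None of the 13 eIF3 subunits had an unadjusted p under 0.05 in the CA cosine. Among the marker lists, 9 of 10 photoreceptor, 4 of 4 neuron, 3 of 7 glia and 3 of 7 fat body genes also peaked in those 6 h. Of the 29 gut, 15 muscle, 23 male and 11 ovary markers, none did. Of other genes of translation, 19 of 35 cytosolic ribosomal proteins and 6 of 10 genes of the TOR and insulin branch did. The counts were 4 of 14 for aminoacyl-tRNA synthetases, 2 of 5 for mitochondrial factors and 0 of 4 for release and recycling factors. They were 2 of 6 for regulators of cap and poly(A) tail and 2 of 4 for the eIF2 kinase branch. In AA no member passed (0% of all), 1 had an unadjusted p under 0.05, against 3.52%, and the peaks of 15 members fell in the first 6 h, against 38.4% of all. That member was eIF2Bgamma, a catalytic subunit of eIF2B, with an amplitude of 0.15 (SE 0.05) and a peak at 0.45 h. eIF4A had 0.12 (SE 0.04) in AA, with a peak at 1.22 h, and 0.12 (SE 0.04) in CA, with a peak at 3.62 h. Peaks fitted to flat profiles carry little information, and the median CA amplitude was 0.10 over the members and 0.10 over all probe sets. For the difference between the cosines of the 2 days, no member passed (0% of all).

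With the body-tissue index as a covariate, 16 of the 37 members lay higher at 18 °C in CA and 21 lower. Over all 11145 probe sets, 5655 lay higher and 5490 lower. The median difference was -0.02 for the members, against 0.002 over all probe sets. The lowest adjusted p among the members was then 0.9998. eIF3l had 0.11 (SE 0.08), eIF4A 0.09 (SE 0.09) and eEF1gamma 0.10 (SE 0.07), each closer to 0 than without the index, while eEF1delta and eIF2A lay farther from it. The part of tissue makeup in the values of these members was not tested.

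**Figure D5:**
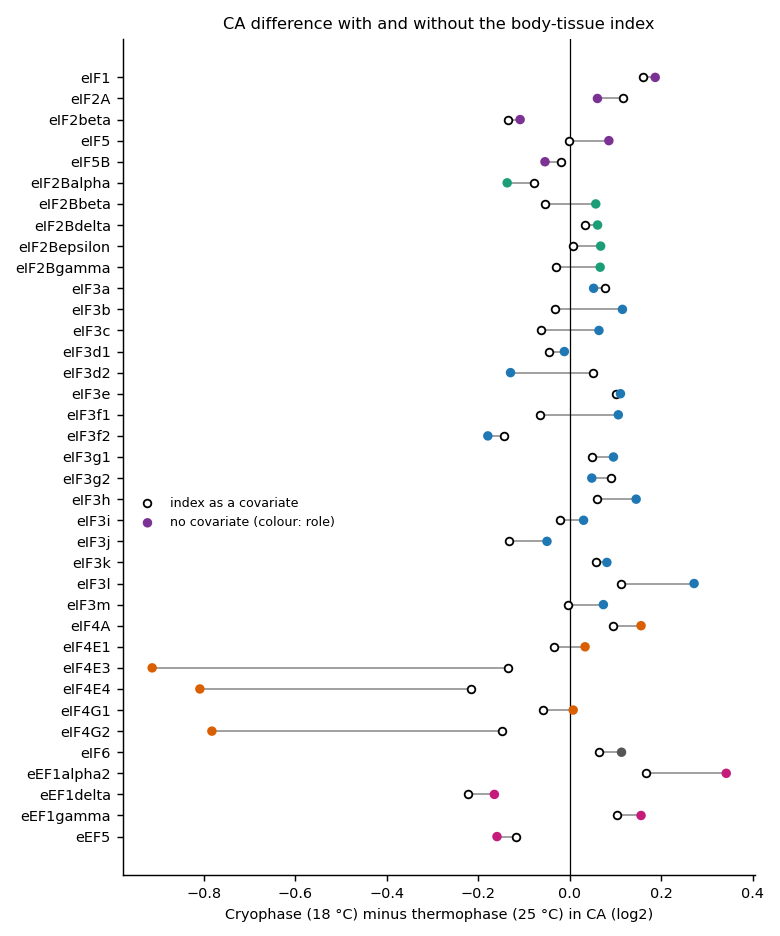
For each of the 37 factors, the filled point is the CA difference (18 °C minus 25 °C, log2) and the open point the same difference once the index is a covariate. The line between them is longest for eIF4E3, eIF4E4 and eIF4G2. eIF1, eEF1delta, eEF1alpha2 and eIF3l are among the factors with both points on the same side of 0.

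Other genes of the translation machinery, in lists fixed beside the members, gave no call either. Of 14 aminoacyl-tRNA synthetases, which load tRNAs, 6 lay higher at 18 °C in CA and 8 lower (median -0.04). Of 35 cytosolic ribosomal proteins, 20 lay higher and 15 lower (median 0.01), against 65.3% higher over all probe sets. At matched hours 10 of the 35 lay higher and 25 lower (median -0.11), against 50.3% higher over all. There 17 had their cold values wholly below, against 6.33% of all, and 11 had an unadjusted p under 0.05, against 6.01%. Of 4 release and recycling factors 1 lay higher at 18 °C in CA, HBS1 with 0.06. Of these, eRF3, the GTPase of termination, had -0.27 (SE 0.11), and -0.15 with the body-tissue index as a covariate. Of 10 genes of the TOR and insulin branch 8 lay higher (median 0.065), and of 5 mitochondrial factors 2 (median -0.02). None passed an adjusted p of 0.05.

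Of the 6 regulators of cap and poly(A) tail, 5 lay higher at 18 °C in CA, with a median of 0.15. 4E-T, which binds eIF4E and represses translation, had 0.33 (SE 0.11), NAT1, a relative of eIF4G, 0.26 (SE 0.08), and Paip2, an inhibitor of poly(A)-binding protein, -0.36 (SE 0.10). Among 4 genes of the eIF2 kinase branch, crc, the fly ATF4, had 0.29 (SE 0.10) and the kinase gene PEK 0.14 (SE 0.07). The other 2 of these 4 lay lower, cnc, a transcription factor of the stress response, with -0.22 (SE 0.08) and PPP1R15, a phosphatase subunit that acts on eIF2, with -0.06 (SE 0.09, adjusted p = 0.729). The other 6 genes named here had adjusted p-values from 0.169 to 0.256. With the body-tissue index as a covariate, the CA differences were 0.15 for 4E-T, 0.24 for NAT1 and -0.13 for Paip2. They were 0.10 for crc, 0.03 for PEK, -0.21 for cnc and -0.05 for PPP1R15.

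Several probe sets of 1 gene did not always give the same value. For eIF2Bdelta the probe set used differed by 0.06 (SE 0.05) in CA and the other by 0.23 (SE 0.08), for eIF6 the values were 0.11 (SE 0.06) and 0.18 (SE 0.05), for eIF3h 0.15 (SE 0.07) and 0.07 (SE 0.08), and the 3 of eIF5B lay between -0.05 and -0.01. For eIF4E7, fitted without the filter, they were -0.37 (SE 0.17) and -0.14 (SE 0.12). The signs were the same in CA within each of these genes. At matched hours the 3 of eIF5B differed by 0.09 (SE 0.06), 0.11 (SE 0.09) and -0.05 (SE 0.06). There the signs also differed for eIF6, with 0.09 (SE 0.06) and -0.04 (SE 0.05), and for eIF3h, with 0.06 (SE 0.07) and -0.03 (SE 0.08). A pair of genes carry an eIF or eEF name only as a synonym and were not counted. CG7483, the helicase of the exon junction complex, differed by 0.06 (SE 0.07) in CA, and CG4849 by 0.04 (SE 0.05).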

How the data were processed

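The members, the gene lists and the alternatives were chosen with earlier results of these data known. The authors processed each time course by itself with RMA (background correction, quantile normalization across arrays and 1 summary per probe set), and the deposited values were read as log2 expression from their range, since the log base and the RMA version are not given in the sources used here. All 12 arrays of 1 *y w* time course were used, grouped by day and phase from the sample titles. Arrays give no read depth, and their number limits the precision.

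Of 14010 probe sets, 44 are controls, 12442 have 1 gene in the platform annotation, 327 several and 1197 none. Names were updated through a RefSeq gene table (Release 6 plus ISO1 MT), which matched 12393 of those with 1 gene. The filter kept 11145 probe sets. No sequence or position is given, since no genome was used here.

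Groups of 3 arrays were fitted over all 12 arrays with limma 3.58.1 in R 4.3.3 (8 residual degrees of freedom), and a cosine and sine of 24 h for each day likewise (6 degrees of freedom). P-values are two-sided, moderated, and adjusted by Benjamini-Hochberg over the 11145 probe sets at 0.05. The models were tested on simulated data. The body-tissue index is, per array, the mean over 67 gut, muscle and male markers of the value minus the gene mean. Figures were drawn with matplotlib 3.10.9 under Python 3.11.15.

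Values are given for the 8 highest and 8 lowest members by CA difference, the 3 highest and 3 lowest in the other comparisons, the 5 smallest p of the CA cosine and 3 of the AA cosine, every eEF1 gene and every eIF4E and eIF4G gene. Any other name was picked with its value in view. The alternatives were other filters on low values, a trended robust prior, tests without moderation, a common array median, averaged probe sets, each day alone, hour of day as a block, 18 °C against all 9 arrays at 25 °C, the body-tissue index as a covariate, an adjusted p under 0.2, and each array left out in turn, and after seeing the data fits without CA10 and CA18 or without CA14, CA18, AA14 and AA18. RNA from several hours of 1 time course is not a set of repeated samples, and p-values measure only the spread between these arrays.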

Additional observations from a re-analysis of the deposited data

How the results depend on the processing

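Without moderation, with other priors or filters and with either day alone, no comparison gave a member past an adjusted p of 0.05. In CA, an adjusted p under 0.2 gave 8 members in the contrast and 1 in the cosine. Over all 11145 probe sets it gave 1768 and 827. Leaving out 1 array gave from 0 to 6 members in the contrast and from 0 to 3 in the cosine. Every count above 0 came from the fit without CA22, which called 1978 of all probe sets in the contrast and 731 in the cosine. The median member difference in CA (0.06) became -0.0202 with the body-tissue index in the model and -0.020 without CA14, CA18, AA14 and AA18. That in AA (0.016) became -0.027 with the index and -0.0343 without those 4 arrays. The median of CA minus AA (0.045) ranged from 0.00333 to 0.0953 when 1 array was left out. Over 44 results of single genes and 978 settings, 949 kept their direction and side of the threshold, 8 passed it only without CA22, and 21 turned in sign, in 11 of the 44 results. With the index, the CA differences of eIF3d2, eIF3b, eIF4E1 and eIF4G1 became 0.0516, -0.0332, -0.0349 and -0.0591, and the CA minus AA difference of eIF4E3 became 0.0757. Without CA14, CA18, AA14 and AA18, the CA differences of eIF3d2, eIF3b, eIF4E1 and eIF4G1 became 0.129, -0.001, -0.129 and -0.157, and the AA differences of eIF4E3, eIF4E4, eIF4G2, eIF4E1 and eEF1delta became 0.113, 0.049, 0.0407, -0.0223 and -0.0217. Without CA10 and CA18, the CA minus AA difference of eIF4E3 was 0.048. Against all 9 arrays at 25 °C, the CA differences of eEF1delta and eIF4E1 became 0.0192 and -0.0374, and a common array median gave eIF4G1 -0.00267. When 1 array was left out, the CA difference of eIF4E1 ranged from -0.0337 to 0.114 and that of eIF4G1 from -0.116 to 0.0895, both lowest without CA14, and eIF4G1 was -0.0112 without CA2. The causes were not tested beyond the arrays each setting leaves out. The labels number no replicates, and with hour of day, which pairs each CA array with an AA array, as a block, no member passed at matched hours or in CA minus AA. With 3 arrays a group, the 95% intervals of the CA differences reached 0.11 to 0.75 to each side, which limits the differences that could be seen.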

Other observations

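The thermophase of the thermocycle day and the subjective thermophase of the next day were both at 25 °C, and their values lay apart in 6 of the 37 factors that passed the filter. In 3 the CA thermophase lay wholly above the AA subjective thermophase, against 2.82% of all probe sets. eEF1delta averaged 7.98 ± 0.05 in the CA thermophase and 7.65 ± 0.12 in the AA subjective thermophase, eIF5B 7.75 ± 0.07 and 7.57 ± 0.11, and eIF3f2 5.15 ± 0.12 and 4.996 ± 0.012 (SD, n = 3 each). The other probe sets of eIF5B overlapped between these phases. One read 6.49, 6.51 and 6.39 in the CA thermophase, against 6.48, 6.405 and 6.46 in the AA subjective thermophase. In 3 members the CA thermophase lay wholly below, against 6.77%. eIF3m, a subunit of eIF3, averaged 9.16 ± 0.14 in the CA thermophase and 9.41 ± 0.05 in the AA subjective thermophase, eEF1gamma 9.65 ± 0.03 and 9.79 ± 0.04, and eIF2A 9.21 ± 0.02 and 9.32 ± 0.05. No test was made of these values, which were looked at after the data were seen. The body-tissue index was 0.79, 1.13 and -0.19 on CA14, CA18 and CA22, against 0.53, 0.41 and -0.41 on AA14, AA18 and AA22. The day, the array order, the history of cold and the makeup of tissues cannot be told apart.

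The lowest CA differences among the 35 ribosomal proteins were those of RpS5b, RpL22-like and RpS19b. RpS5b had a cryophase minus thermophase difference of -0.46 (SE 0.29), RpL22-like -0.36 (SE 0.10) and RpS19b -0.31 (SE 0.14), with limma adjusted p-values of 0.359, 0.169 and 0.225, and after adding the index the values were -0.33, -0.20 and -0.05. They were chosen after their values were seen.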
